A study of Mus musculus with 10 samples.

Results

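A group of 10 genes for secreted neuropeptides and granins was followed by ribosome profiling (Ribo-seq) in the developing mouse neocortex: *Cck*, *Nts*, *Npy*, *Sst*, *Penk*, *Tac1*, *Adcyap1*, *Vgf*, *Scg2* and *Chgb*. They are 10 of the 22373 genes in the footprint table, taken by gene identifier, and all 10 passed the filter on low counts that 13484 genes passed. *Cck* and *Nts* were picked by the size of their rise in these same libraries, so their levels are given as a description without a test, and the other 8 were tested. The group and its tests were chosen with earlier results of these data known, a limit on the comparison with all genes that follows. From E12.5 (stages before birth are given as days of gestation) to the day of birth (P0), 6 of the 8 tested genes rose and none fell, where 30.1% of all genes rose and 32% fell, and *Npy* and *Vgf* rose by far the most of the 8.

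Neuropeptides are made as longer precursors that enter the secretory pathway, are packed into dense-core vesicles and are cut and modified there before they are released to act on receptors, nearly all of them coupled to G proteins. Granins (*Vgf*, *Scg2*, *Chgb*) are acidic proteins of the same vesicles and are themselves cut into peptides. In the mature neocortex *Npy*, *Sst*, *Penk* and *Tac1* are known mainly from subsets of inhibitory interneurons, whereas *Cck* is made by both interneurons and pyramidal cells.

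Neocortex of wild-type CD-1 mice was collected at 4 embryonic stages (E12.5, E14, E15.5, E17) and at P0, with 2 libraries per stage (10 in all) and no treatment other than the RNase T1 and RNase A digestion common to every library. Each library came from pooled brains of both sexes, so spread between animals was not measured, and p-values rest on the spread between such pools. A footprint is the piece of mRNA covered by an 80S ribosome, so the level counts ribosomes on a gene's coding sequence and combines the amount of mRNA with its translation; the RNA libraries of the study were not analysed here. In a whole-tissue lysate, a change in the number of cells that make a peptide and a change in the amount made per cell cannot be told apart.

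Libraries held 7544404 (P0 replicate 1) to 36129988 counts. Levels are in CPM, the counts scaled to a common library size, after scaling by the trimmed mean of M-values (TMM). A level also depends on the length of the coding sequence, which was not used here, so the tests compare stages and not genes. Sums over gene lists and rankings by mean CPM are not corrected for length. The P0 libraries differed most from each other: the SD of the log2 ratio of one replicate to the other, over 4559 well-covered genes, reached 0.539, against 0.127 to 0.221 in the embryonic stages. Markers of the labelled tissue were present, with *Neurod6*, a transcription factor of cortical excitatory neurons, at 119 to 286 CPM on average at each stage. The hypothalamic genes *Otp* and *Sim1* had at most 1 count in any library. The 7 amygdala, hypothalamus and thalamus markers listed, these included, summed to 88.1 to 94.3 CPM at E12.5 and 9.46 to 11.6 at P0.

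Upstream sequence was read for 8 of the 10 genes from RefSeq promoter windows on GRCm38.p6, each spanning 250 bases before to 50 bases after a transcription start; *Penk* and *Vgf* were not in that table. Several genes of this kind are textbook targets of the cAMP-responsive factor CREB, so the windows were searched for its element, TGACGTCA, which reads the same on both strands. The 80 bases that end just before the start of the genes with the whole element are shown with the element in capitals. They lie at chr16:23890845-23890924 (minus strand, *Sst*), chr1:79440027-79440106 (minus, *Scg2*) and chr2:132781562-132781641 (plus, *Chgb*).
Sst: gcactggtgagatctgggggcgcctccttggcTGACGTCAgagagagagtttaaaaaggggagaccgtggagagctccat
Scg2: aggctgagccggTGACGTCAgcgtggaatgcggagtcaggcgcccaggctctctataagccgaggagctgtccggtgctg
Chgb: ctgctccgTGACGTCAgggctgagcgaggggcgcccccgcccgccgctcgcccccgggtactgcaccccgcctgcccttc

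The first base of the element lay at -48 in *Sst*, -68 in *Scg2* and -72 in *Chgb*, counted from the start. It was present in 3 of the 8 genes with a window, and in 588 of all 32851 windows (1.79%). The shorter half-site TGACG, searched on both strands and contained in the whole element, was present in 7 of the 8 genes and in 20.8% of all windows. The same stretch is shown for *Cck* (chr9:121495695-121495774, minus strand), with its half-site CGTCA in capitals, and for *Npy* (chr6:49822630-49822709, plus strand), the only one of the 8 with no half-site in its window.
Cck: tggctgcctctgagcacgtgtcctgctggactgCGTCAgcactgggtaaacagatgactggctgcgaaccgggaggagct
Npy: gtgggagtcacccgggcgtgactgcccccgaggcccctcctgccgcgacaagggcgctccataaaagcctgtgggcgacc

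These matches are letters in a window and not measured binding sites. The ratio of mean CPM between P0 and E12.5 was 2.68, 2.45 and 3.16 for the genes with the whole element (*Sst*, *Scg2*, *Chgb*). It was 35.0, 79.7, 2.62 and 1.54 for those with a half-site only (*Cck*, *Nts*, *Tac1*, *Adcyap1*) and 26.9 for *Npy*. *Cck* and *Nts* were picked for their rise, so these ratios cannot relate the size of a rise to the element.

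**Figure D1:**
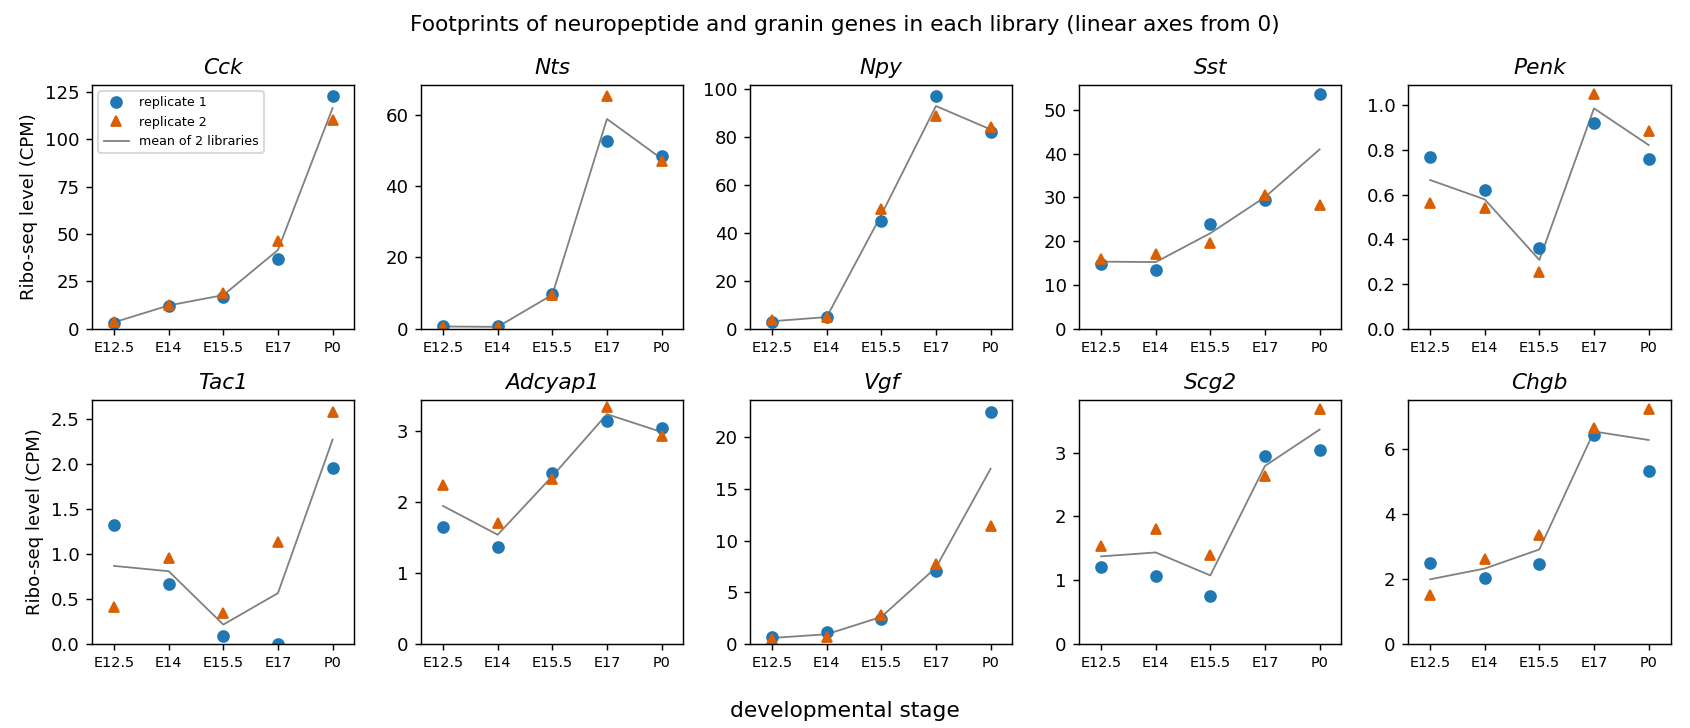
Ribo-seq level (CPM, linear axes from 0, a separate scale for each gene) of the 10 genes at 5 developmental stages; circles and triangles are the 2 libraries of a stage and the line joins their means. *Nts* and *Npy* turn upward at E15.5, *Cck* and *Vgf* are highest at P0, and the P0 libraries of *Sst* (53.7 and 28.3 CPM) and *Vgf* (22.5 and 11.4 CPM) lie far apart.

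*Cck* (ENSMUSG00000032532) encodes cholecystokinin, a gut and brain peptide. Its level was 2.92 and 3.74 CPM (E12.5), 11.8 and 12.7 (E14), 16.5 and 18.8 (E15.5), 36.9 and 46.1 (E17), and 122.7 and 110.3 (P0). Every library lay above all libraries of the earlier stages. The means rose 3.68-fold, 1.45-fold, 2.35-fold and 2.81-fold at the 4 successive steps, and 35.0-fold in all. The E14 libraries of *Npy* and *Vgf* likewise lay above those of E12.5, though no tested gene of the group was called at that step. The *Cck* gene overlaps the long non-coding RNA gene *Gm38661* in RefSeq, and whether strand was used in counting is not given in the sources used here.

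*Nts* (ENSMUSG00000019890) encodes the precursor of neurotensin and neuromedin N. Both E12.5 and E14 gave 15 and 10 counts in their replicates, which correspond to 0.825 and 0.374 CPM and to 0.663 and 0.317 CPM. The level was then 9.61 and 9.42 CPM at E15.5, 52.6 and 65.3 at E17, and 48.4 and 47.1 at P0. *Nts* was thus near the detection limit until E14, rose 19.4-fold at E15.5 and 6.19-fold at E17, and was at 0.810 of its E17 mean at P0, with both P0 libraries below both E17 libraries.

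*Npy* (ENSMUSG00000029819), the gene of neuropeptide Y, had 2.59 and 3.59 CPM at E12.5 and 4.90 and 4.72 at E14. It had 45.0 and 50.04 CPM at E15.5, 97.0 and 88.8 at E17, and 82.1 and 84.2 at P0. The largest change fell between E14 and E15.5, where *Npy* rose by 3.30 on the log2 scale (SE 0.14; limma-voom, adjusted p = 2.22e-05). It rose again at E17 (0.97, SE 0.12, adjusted p = 0.00743, limma), while the difference between P0 and E17 was -0.16 (SE 0.12, adjusted p = 0.363, limma). From E12.5 to P0 it rose by 4.73 (SE 0.16, adjusted p = 4.84e-07, limma), and this call and that at E15.5 were kept under every alternative processing run.

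*Nts* and *Npy* had a like course over the stages, with a Pearson r of 0.97 between their log2 CPM over the 10 libraries, which share depth and stage. Such values were common: 713 genes had an r above 0.95 with *Npy*, and r was 0.95 between *Cck* and *Vgf*. From E12.5 to E14 the mean of *Cck* rose 3.68-fold, against 1.56-fold for *Npy* and a ratio of 0.817 for *Nts*. From E17 to P0 the ratio was 2.81 for *Cck*, 0.895 for *Npy* and 0.810 for *Nts*. At P0 against E17 the 95% interval of the log2 difference ran from -0.39 to 0.07 for *Npy*. It was taken from a normal distribution and is narrower than the limma test implies.

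*Sst* (ENSMUSG00000004366) encodes somatostatin, an inhibitory peptide made by a large class of interneurons. Its level was already 14.8 and 15.9 CPM (E12.5), followed by 13.4 and 17.1 (E14), 24.0 and 19.6 (E15.5), 29.5 and 30.7 (E17), and 53.7 and 28.3 (P0). No single step passed the test, and the rise accumulated over the stages: 0.97 at E17 against E12.5 (SE 0.27, adjusted p = 0.0165, limma) and 1.29 at P0 against E12.5 (SE 0.28, adjusted p = 0.00369, limma). The P0 replicates differed by 0.93 on the log2 scale, more than the SD of 0.539 between these libraries, and leaving out P0 replicate 1 gave a P0 difference of 0.88, leaving out P0 replicate 2 one of 1.84. The E17 call was lost when either E12.5 or either E17 library was left out (adjusted p 0.0591 to 0.0729, limma).

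*Penk* (ENSMUSG00000045573) encodes proenkephalin, the source of enkephalin opioid peptides. It was sparse throughout, with 6 to 37 counts per library, and had 0.770 and 0.561 CPM (E12.5), 0.618 and 0.539 (E14), 0.362 and 0.253 (E15.5), 0.921 and 1.05 (E17), and 0.761 and 0.883 (P0). Its lowest level was at E15.5, the stage at which *Nts* and *Npy* turned upward. *Penk* rose from E15.5 to E17 by 1.59 (SE 0.33, adjusted p = 0.0253, limma), whereas the difference between P0 and E12.5 was 0.42 (SE 0.28, adjusted p = 0.217, limma), with overlapping libraries.

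*Tac1* (ENSMUSG00000061762), the precursor of substance P and neurokinin A, varied widely between replicates. It had 1.32 and 0.411 CPM (E12.5), 0.663 and 0.951 (E14), 0.0904 and 0.338 (E15.5), 0 and 1.13 (E17), and 1.96 and 2.58 (P0). The library with 0 counts, E17 replicate 1, allows up to 3 counts, or 0.0953 CPM (counting error only), and lay well below its partner with 30 counts. Both P0 libraries lay above all others, yet neither P0 against E12.5 (1.86, SE 0.73, adjusted p = 0.053) nor P0 against E17 (4.41, SE 1.42, adjusted p = 0.061) passed the limma test. Single libraries set these values: leaving out E17 replicate 1 gave a difference from E17 of 1.09, leaving out its partner one of 7.26, and that from E12.5 was 2.50 without E12.5 replicate 1 and 0.85 without E12.5 replicate 2. The mean CPM at P0 was 4.03 times that at E17. Against E12.5 the difference passed without either E17 library (adjusted p = 0.0144 and 0.0145, limma) and without P0 replicate 1 (0.0371), and against E17 without P0 replicate 1 (0.0424).

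*Adcyap1* (ENSMUSG00000024256) encodes PACAP, a peptide that raises cAMP through its receptors. Its level moved within a narrow range: 1.65 and 2.24 CPM (E12.5), 1.37 and 1.71 (E14), 2.41 and 2.32 (E15.5), 3.14 and 3.34 (E17), and 3.05 and 2.94 (P0). It rose by 0.60 at E15.5 against E14 (SE 0.19, adjusted p = 0.0382, limma) and by 0.58 at P0 against E12.5 (SE 0.19, adjusted p = 0.0267, limma). These small rises were fragile. The first was lost when any E14, E15.5 or E17 library was left out (adjusted p 0.0619 to 0.178, limma), and the other without E12.5 replicate 1 (0.142) or P0 replicate 2 (0.0658). With DESeq2 the adjusted p was 0.229 and 0.143. *Adcyap1* overlaps the long non-coding RNA gene *Gm32465* in RefSeq.

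Among the granins, *Vgf* (ENSMUSG00000037428), a neurotrophin-inducible gene, changed most. Its level was 0.660 and 0.486 CPM (E12.5), 1.19 and 0.666 (E14), 2.44 and 2.79 (E15.5), 7.02 and 7.77 (E17), and 22.5 and 11.4 (P0). *Vgf* was the one tested gene called at each of the last 3 steps: by 1.59 at E15.5 (SE 0.49, adjusted p = 0.0355), 1.50 at E17 (SE 0.34, adjusted p = 0.0324) and 1.02 at P0 (SE 0.28, adjusted p = 0.0391, limma). Over the whole course it rose by 4.71 (SE 0.62, adjusted p = 0.000244, limma), and that call was kept in every alternative run.

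The single steps of *Vgf* were less firm than its whole rise. Each of its steps, from E14 onward, was lost when any 1 of the 8 embryonic libraries was left out, with an adjusted p between 0.0505 and 0.25 for E15.5, between 0.0521 and 0.235 for E17 and between 0.055 and 0.198 for P0 (limma). Leaving out P0 replicate 1 gave 0.63 for the step at P0, and leaving out P0 replicate 2 gave 1.64.

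*Scg2* (ENSMUSG00000050711), secretogranin II, had 1.21 and 1.53 CPM (E12.5), 1.06 and 1.81 (E14), 0.753 and 1.39 (E15.5), 2.95 and 2.63 (E17), and 3.05 and 3.68 (P0). The libraries fell into a lower set up to E15.5 and a higher set from E17, without overlap. *Scg2* rose by 1.50 at E17 against E15.5 (SE 0.32, adjusted p = 0.0264, limma) and by 1.32 at P0 against E12.5 (SE 0.32, adjusted p = 0.00659, limma). With sample quality weights the latter had an adjusted p of 0.0778 (limma).

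*Chgb* (ENSMUSG00000027350), chromogranin B, showed the same break between E15.5 and E17. It had 2.48 and 1.50 CPM (E12.5), 2.03 and 2.598 (E14), 2.47 and 3.34 (E15.5), 6.41 and 6.65 (E17), and 5.33 and 7.21 (P0). It rose by 1.20 at E17 against E15.5 (SE 0.23, adjusted p = 0.021, limma) and by 1.81 at P0 against E12.5 (SE 0.28, adjusted p = 0.000579, limma), while its P0 libraries enclosed those of E17 (0.0049, SE 0.22). *Vgf*, *Scg2* and *Chgb* thus all rose at E17, and *Vgf* alone was called again at P0; the difference between them at that step was not tested.

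**Figure D2:**
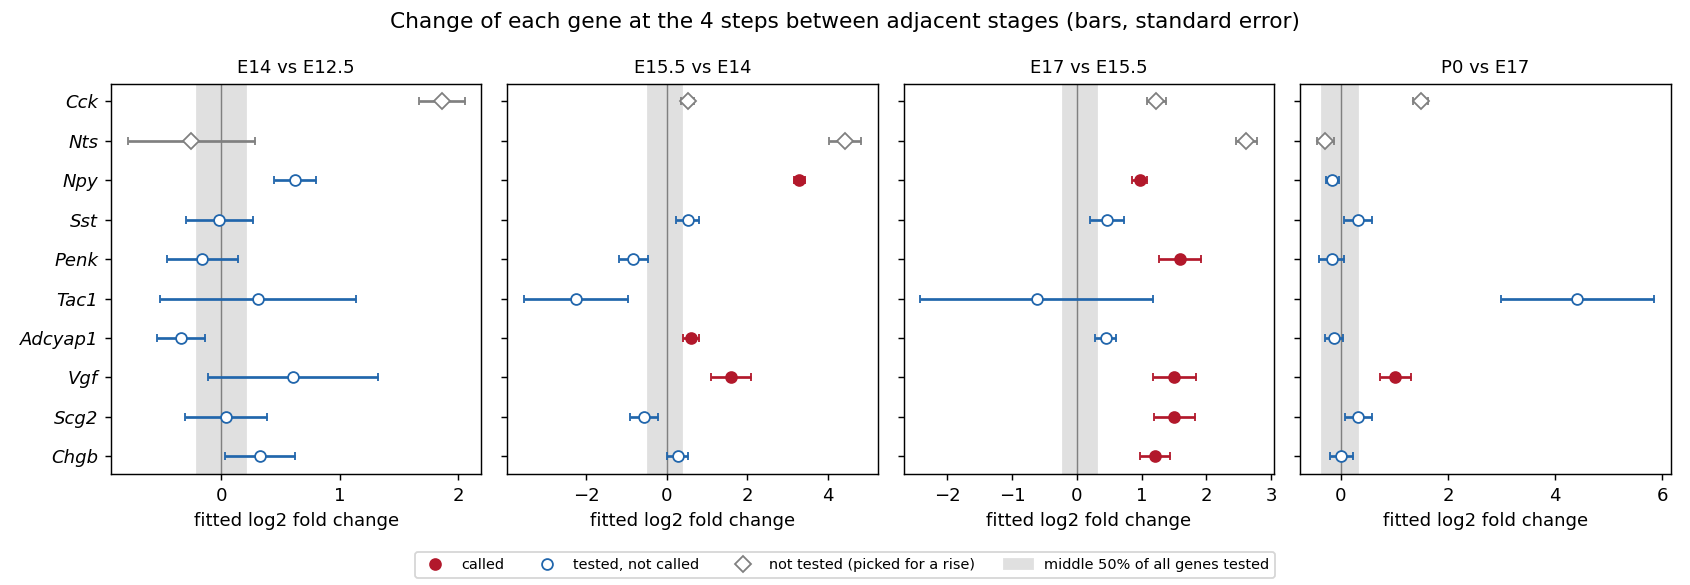
Fitted log2 fold change (x axis, one scale per panel) of each of the 10 genes at the 4 steps between adjacent stages, with standard errors; filled red circles passed the test, open blue circles did not, open grey diamonds were not tested, and the grey band holds the middle 50% of all 13484 genes. No tested gene passed at the first step, and 3, 5 and 1 passed at the next 3 steps in order, all to the right of 0.

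Counted over the 8 tested genes, the most calls fell at E17. A gene was called at an adjusted p below 0.05 and a rise of at least 25%, or the reverse fall. At E14 against E12.5, 0 of 8 were called by limma, edgeR or DESeq2, and 1 (*Npy*, 0.62, SE 0.18) had an unadjusted p below 0.05 in limma; of all genes tested 0.638% were called at this step in either direction. At E15.5 against E14, 3 of 8 rose (*Npy*, *Vgf*, *Adcyap1*) and none fell, where 16.5% of all genes rose and 36.1% were called in either direction, so the number of calls was near the share over all genes. At E17 against E15.5, 5 of 8 rose (*Npy*, *Penk*, *Vgf*, *Scg2*, *Chgb*), against 5.61% of all genes. *Penk* is in this count only because its E17 and P0 libraries passed the footprint filter. At P0 against E17, 1 of 8 rose (*Vgf*), against 9.46% of all genes, a share that the count of 1 does not stand clear of.

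Against E12.5, 6 of the 8 were higher at E17, where 26.9% of all genes were, and 6 of 8 were higher at P0, where 30.1% were. The same 6 genes were called in both: *Npy*, *Sst*, *Adcyap1*, *Vgf*, *Scg2* and *Chgb*; both comparisons use the E12.5 libraries. At E17 only 3 of these calls were left without E12.5 replicate 1 or without E17 replicate 2, and *Npy*, *Vgf* and *Chgb* were called under every alternative; *Scg2* was lost without any E12.5 or E17 library (adjusted p 0.0556 to 0.11, limma). The median log2 change of the 8 genes at P0 was 1.56, beside -0.01 over all genes. Across the 5 stages all 8 changed by the F test (limma, adjusted p from 1.45e-06 for *Npy* to 0.0279 for *Tac1*), as did 63.8% of all genes; 7 of 8 did so with edgeR and 6 with DESeq2.

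The step at E17 depended on every library that enters it. Without E15.5 replicate 1, E15.5 replicate 2, E17 replicate 1 or E17 replicate 2, 0 of the 5 calls remained (limma, adjusted p from 0.0638 for *Npy* to 0.253 for *Scg2*), although the fitted changes stayed between 0.89 and 1.86; in these fits the lone library of a stage is assumed to vary like the other stages. At E15.5, *Npy* alone was called without any of the E14, E15.5 or E17 libraries.

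The receptors of these peptides moved in both directions, in counts that do not stand clear of the shares over all genes. Of 24 receptor genes listed, 10 passed the filter, and at P0 against E12.5, 5 were higher and 3 lower, where 30.1% and 32% of all genes were. Among the higher, *Sstr4* passed the filter only through P0, and among the lower, *Cckar* only through E12.5 and E14. The rises included receptors for *Nts* and *Npy* peptides. *Ntsr1*, the high-affinity neurotensin receptor, had 1.60 and 1.05 CPM at E12.5 and 30.0 and 16.3 at P0 (log2 change 4.05, SE 0.39, adjusted p = 4.46e-05, limma). It was called at E15.5 (2.52) and at E17 (1.02), each against the stage before. *Npy1r*, the Y1 receptor, went from 0.770 and 0.972 to 5.76 and 6.09 CPM (2.72, SE 0.37, adjusted p = 0.000294, limma), with calls at the same 2 steps (1.44 and 1.54). The somatostatin receptor gene *Sstr1* was called at these steps too (1.44 and 1.38), although no single step of *Sst* was. Calls at these steps were thus not particular to receptors of *Nts* and *Npy* peptides.

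The somatostatin receptor genes went opposite ways. *Sstr2* fell from 25.7 and 27.8 CPM at E12.5 to 6.20 and 4.53 at P0 (-2.42, SE 0.16, adjusted p = 5.68e-06, limma), whereas *Sstr1* rose from 1.10 and 1.76 to 16.3 and 12.4 (3.23, SE 0.26, adjusted p = 1.73e-05, limma). *Sstr4* was at or below 0.225 CPM in every embryonic library and at 1.31 and 0.835 CPM at P0 (2.20, SE 0.48, adjusted p = 0.00423, limma). Over the same course *Sst* itself rose by 1.29.

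For *Cck* the receptor genes were scarce. *Cckar*, the CCK1 receptor, went from 17 and 32 counts at E12.5 over 19 and 23 (E14) and 6 and 1 (E15.5) to 0 and 0 (E17) and 0 and 1 (P0), and was called lower at P0. *Cckbr*, the CCK2 receptor and the main one of the adult brain, had 13 counts over all 10 libraries and was not tested. *Sort1*, sortilin, which binds neurotensin and sorts proteins inside cells, fell by 1.28 (SE 0.14, adjusted p = 7.63e-05, limma).

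*Adcyap1r1*, the PACAP receptor, was measured at 33.3 and 39.2 CPM at E12.5 and at 49.2 and 31.0 at P0, with a difference of 0.07 (SE 0.21, adjusted p = 0.79, limma). The 95% interval from a normal distribution, narrower than the limma test implies, was -0.34 to 0.48. *Oprm1*, the mu opioid receptor bound by enkephalins, was called higher at P0 (2.31, SE 0.88, adjusted p = 0.0476, limma), but its E15.5 libraries held 103 and 1 counts, a spread wider than the change. *Npy2r* was not called (1.03, SE 0.49, adjusted p = 0.0999, limma). The tachykinin receptors *Tacr1* and *Tacr3*, which bind products of *Tac1*, had 59 and 50 counts in all and were not tested, and *Oprk1* and *Npy6r* had 0.

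**Figure D3:**
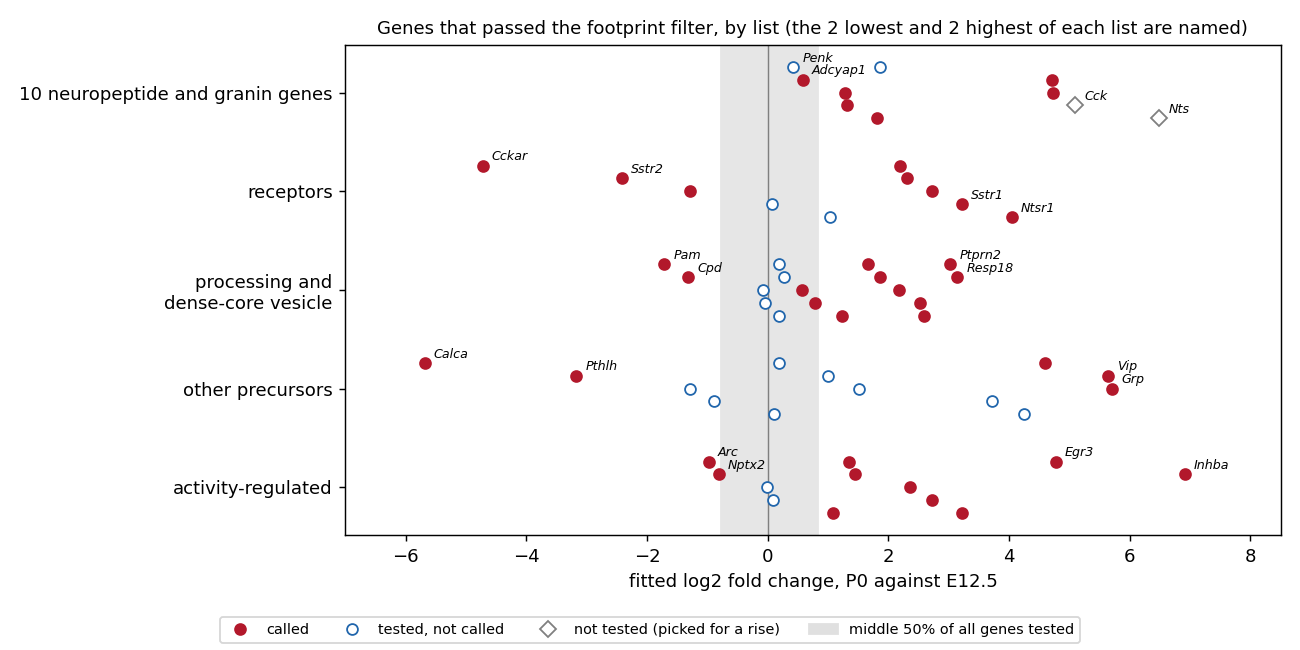
Fitted log2 fold change at P0 against E12.5 (x axis) of the 10 genes and of the genes of 4 related lists that passed the footprint filter (rows; vertical offsets only separate points); red points passed the test, blue open points did not, grey diamonds were not tested, and the grey band holds the middle 50% of all genes. The 10 genes lie at or above 0.42, whereas each of the 4 lists has called genes on both sides of 0.

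Genes that process propeptides and build dense-core vesicles were more often higher than lower at P0. Of 18 listed, 17 passed the filter, and 10 were higher and 2 lower against E12.5 (median log2 change 0.78), where 30.1% and 32% of all genes were. *Syt4*, a vesicle synaptotagmin, went from 13.97 and 16.2 CPM at E12.5 to 97.8 and 86.6 at P0 (2.598, SE 0.11, adjusted p = 8.95e-07, limma). *Ptprn2*, a membrane protein of dense-core vesicles, rose by 3.03 (SE 0.25, adjusted p = 1.85e-05, limma), and *Resp18*, a small luminal protein of endocrine cells, by 3.14 (SE 0.80, adjusted p = 0.00851, limma).

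The enzymes were split. *Pcsk2*, a convertase that cuts many of these precursors, had 1.27 CPM in both E12.5 libraries and 5.98 and 5.73 at P0, and *Pcsk2* rose at both E17 (1.26) and P0 (0.93). *Pcsk1*, the other neuroendocrine convertase, stayed at or below 0.326 CPM and was not tested. *Pam*, which amidates the ends of *Cck*, *Npy*, *Tac1* and *Adcyap1* products, fell from 16.1 and 15.4 to 5.55 and 4.46 CPM (-1.72, SE 0.17, adjusted p = 4.92e-05, limma), and *Cpd*, a carboxypeptidase, fell by 1.32 (SE 0.20, adjusted p = 0.000522, limma).

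The genes of this list with the most footprints peaked at E17. *Scg3*, a granin that binds vesicle membranes, had 101.97 and 93.5 CPM at E17 and 42.0 and 59.8 at P0, and fell at that step by 0.94 (adjusted p = 0.00954, limma). *Scg5*, the chaperone of *Pcsk2* protein, fell there by 0.51 (adjusted p = 0.0166, limma). *Chga*, the close relative of *Chgb*, differed by -0.04 between P0 and E12.5 (SE 0.16, adjusted p = 0.844, limma), where *Chgb* rose by 1.81; the difference between the 2 genes was not tested.

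Other neuropeptide precursors were mostly near the limit of detection. Of 37 listed, 36 were in the table and 13 passed the filter; 3 were higher and 2 lower at P0, beside the same shares of all genes (30.1% and 32%). *Grp*, gastrin-releasing peptide, was at 1.54 and 0.524 CPM at E12.5, 9.69 and 10.3 at E17 and 74.4 and 28.1 at P0 (5.71 over the course, SE 0.76, adjusted p = 0.000264, limma), with P0 libraries farther apart than those of *Sst* or *Vgf*. *Pnoc*, the nociceptin precursor, rose from 1 and 2 counts at E12.5 to 23 and 85 at P0 (4.60, SE 0.67, adjusted p = 0.000446, limma). *Vip*, of a further interneuron class, had 0 counts in every library up to E15.5 and 11 and 46 at P0. *Nucb2*, the nesfatin precursor, was not called (0.19, SE 0.21, adjusted p = 0.448, limma).

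*Calca*, the calcitonin gene-related peptide gene, had 35 and 25 counts at E12.5, 0 at E15.5, 39 and 28 at E17 and 0 again at P0. Its libraries therefore agreed within each stage while the stages alternated, and it was called lower at P0 against E12.5. *Calca* and *Vip* are named after their values were seen.

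Since *Vgf* and *Scg2* belong to the genes that neuronal activity induces in mature neurons, 16 activity-regulated genes were listed. At P0 against E12.5, 8 of the 12 that passed the filter were higher and 2 lower (median 1.40), beside 30.1% and 32% of all genes. *Inhba*, an activin subunit, went from 4 and 0 counts at E12.5 to 91 and 233 at P0. *Nr4a3*, a nuclear receptor, rose by 2.72 (SE 0.17, adjusted p = 4.54e-06, limma), and *Bdnf*, the neurotrophin, by 3.22 (SE 1.22, adjusted p = 0.0465, limma) with 0 and 47 counts in its E12.5 libraries.

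*Homer1*, a synaptic scaffold, rose by 1.35 (SE 0.18, adjusted p = 0.000271, limma), while *Crem* was not called (0.08, SE 0.23, adjusted p = 0.767, limma). *Arc* fell by 0.97 (SE 0.25, adjusted p = 0.00869, limma) and *Nptx2* by 0.81 (SE 0.27, adjusted p = 0.0309, limma). *Egr1* and *Fos*, named after their values were seen, were called at P0 against E17 (2.35 and 1.90). At that step 3 of the 12 activity-regulated genes were called, all higher, beside 9.46% of all genes higher. At E17 against E15.5, 0 of the 12 were called, beside 9.04% of all genes in either direction, a share that this count does not stand clear of. At that step 8 of the 12 had a fitted change above 0 (median 0.47), and 3 had an unadjusted p below 0.05 (limma).

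Over the 4 lists together, 52 genes were tested, of which 0 were called at E14 against E12.5 by limma (0 by edgeR, 1 by DESeq2, 8 at an unadjusted p below 0.05). At E15.5 against E14, 22 were called (10 higher, 12 lower), beside 36.1% of all genes. At E17 against E15.5, 15 were called and all were higher, beside 9.04% of all genes in either direction. At P0 against E17, 16 were called (20.5% of all genes), at E17 against E12.5, 28 (54.7%) and at P0 against E12.5, 35 (62.1%). Of all genes called at E17 against E15.5, 62.1% were higher. At that step 0 of the list genes were called (limma) without any E15.5 or E17 library, and 9 without E14 replicate 2. Leaving out E14 replicate 2, E15.5 replicate 1 or E15.5 replicate 2 brought the 22 calls at E15.5 to 10, 12 or 13, and leaving out E17 replicate 1 or 2 brought the 16 at P0 to 6 or 10.

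Markers of other cells moved over the same stages. The summed level of 12 ganglionic eminence and interneuron genes was 44.3 to 51.2 CPM at E12.5, 62.7 to 76.2 at E14, 153.7 to 160.0 at E15.5, 166.4 to 174.5 at E17 and 205.2 to 230.8 at P0; 11 of the 12 were called at P0 against E12.5, 10 of them higher. *Gad1*, the GABA-synthesizing enzyme, went from 1.93 ± 0.39 to 52.6 ± 2.1 CPM (SD, n = 2), and *Lhx6*, a factor of *Sst* interneurons, from 7.64 ± 0.011 at E12.5 to 67.9 ± 3.2 at E15.5. At E15.5 against E14, 8 of the 12 rose and 1, *Sp8*, fell, the step of the largest rise of *Npy* and *Nts*. The part of interneuron number in the rises of *Npy*, *Sst* and the other peptides was not tested.

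Tissue next to the neocortex also differed between stages. Choroid plexus markers summed to 289.6 to 347.6 CPM at E12.5 and 1161 to 1167 at E14, but to 11.8 to 14.4 at E15.5, 6.45 to 6.76 at E17 and 9.21 to 15.3 at P0, and 7 of 7 tested fell at E15.5. Meningeal markers summed to 368.5 to 383.2, 298.7 to 299.2, 28.2 to 29.5, 53.7 to 60.2 and 16.97 to 26.5 CPM at the 5 stages, and 8 of 8 fell at E15.5. *Lhx9*, a diencephalic marker also made elsewhere in the early brain, fell from 60.7 ± 0.23 to 1.26 ± 0.062 CPM (SD, n = 2). *Tcf7l2*, of the same marker list, fell at E15.5 against E14 (-0.69, SE 0.14, adjusted p = 0.00623, limma). It was also lower at P0 against E12.5 (-1.69, SE 0.16, adjusted p = 3.21e-05, limma). The striatal genes *Isl1* and *Drd2* had at most 6 counts in any library. The part of this change in tissue content in the steps of the peptide genes at E15.5 was not tested.

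**Figure D4:**
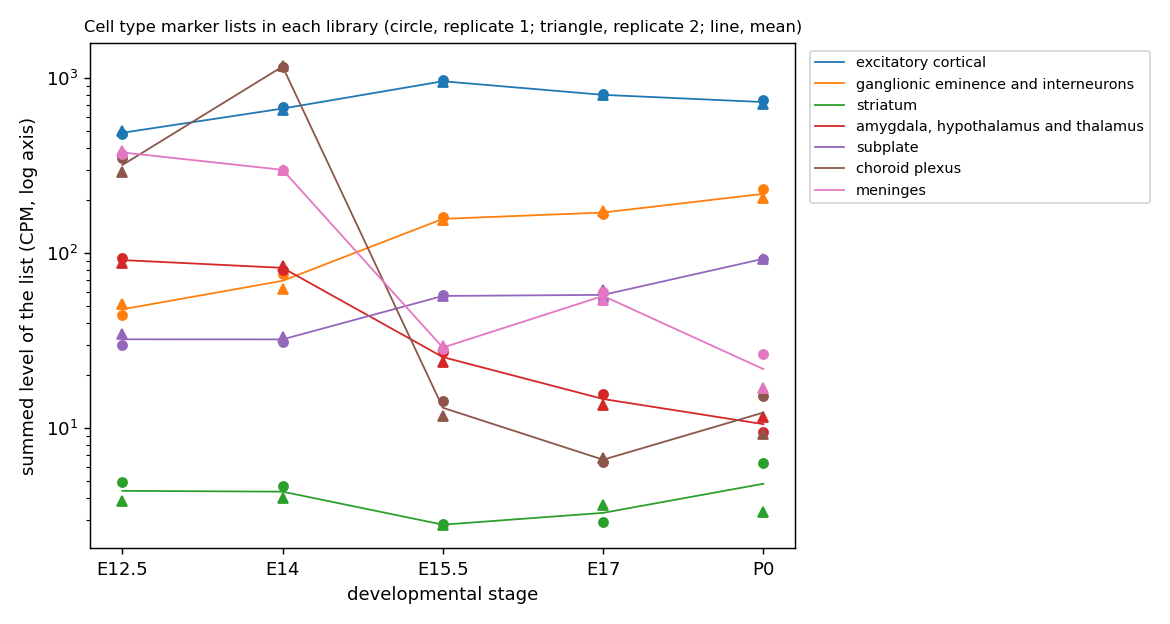
Summed level (CPM, log axis) of 7 cell type marker lists in each library at 5 stages; circles and triangles are the replicates and lines join their means. Choroid plexus and meningeal markers drop at E15.5, the step at which the interneuron list rises from 62.7 to 76.2 CPM to 153.7 to 160.0 CPM, and the striatal list stays below 6.31 CPM.

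Markers of excitatory cortical neurons summed to 475.9 to 497.3 CPM at E12.5, 948.1 to 968.9 at E15.5 and 709.4 to 748.4 at P0. Within that list *Neurod2*, a factor of differentiating excitatory neurons, rose by 1.37 from E12.5 to P0 (SE 0.23, adjusted p = 0.000898, limma) and *Emx1*, of dorsal progenitors, fell by 1.93 (SE 0.20, adjusted p = 6.53e-05, limma). Of 5 subplate markers tested, 3 were higher and 1 lower at P0 against E12.5. *Nr4a2* was at 10.3 ± 0.46 CPM at E12.5 and 71.9 ± 4.4 at P0 (SD, n = 2), whereas *Nxph4* fell by 3.29 (SE 0.20, adjusted p = 3.29e-06, limma).

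The genes whose log2 CPM followed *Cck* most closely over the 10 libraries, among 9209 genes whose mean count was 100 or more, were *Rhou* (Pearson r 0.987), a small GTPase, *Trpm3* (0.984), an ion channel, and *Plch2* (0.983), a phospholipase C. For *Nts* they included the sodium channel gene *Scn2a* (0.994) and *Syt4* (0.992). All libraries of a stage share their age, so a high r is common: 238 genes had an r above 0.95 with *Cck* and 305 with *Nts*.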

How the data were processed

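Footprints were measured in 10 neocortex libraries. Per the study's methods, the authors trimmed reads with cutadapt, collapsed duplicate reads, removed rRNA, tRNA and snoRNA reads with Bowtie 2 and aligned the rest with STAR to GENCODE M12, keeping reads that map to several places; the submitters' processing notes name STAR 2.7.0. The deposited table holds whole-number counts per gene, and whether they come from the isoform estimates named in the methods is not given in the sources used here. Near-identical genes could therefore share reads.

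Of 22373 identifiers, 22274 were matched to a symbol. The 13484 genes kept had 32 or more footprints in the 2 libraries of some stage together; they were scaled by TMM and fitted with limma-voom (limma 3.58.1, edgeR 4.0.16, R 4.3.3) with 1 coefficient per stage over all 10 libraries. The study's methods name voom and limma; TMM scaling and this use of the footprint minimum on the deposited counts were chosen here. Tests were two-sided with Benjamini-Hochberg adjustment over all 13484 genes, and CPM used TMM-scaled library sizes. A sparse gene could reach the footprint minimum only at the stages where it was high. The call of such a gene is no independent support for its change. DESeq2 1.42.0 and edgeR's quasi-likelihood test were alternatives. Depth ran from 7544404 to 36129988 counts, and limits on a count of 0 cover counting error only. Levels per coding length were planned but not computed, as no coding lengths were used here.

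The members, gene lists and tests were chosen with earlier results of these data known. Named list genes were the 2 with the highest mean CPM, up to 3 largest rises and 2 largest falls called at P0 against E12.5 with a mean of at least 20 counts, all receptors that passed the filter, and the 3 genes most like *Cck* and *Nts*; others are named as examples, chosen after their values were seen. Some genes that this rule names are not reported here.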

Additional observations from a re-analysis of the deposited data

How the results depend on the processing

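No result changed direction under the alternatives run. The count of peptide and granin genes called at P0 against E17 was 0 with no filter and 0 with only the stages compared, and that at E15.5 against E14 was 5 with only the stages compared. Over the alternatives that left out no single library, the count against E12.5 was 4 to 7 at E17 and 4 to 8 at P0, where the main fit gave 6 at both. Of the 52 genes of the 4 lists, the number called at E14 against E12.5 was 1 with DESeq2, 3 with sample quality weights and 4 without both P0 libraries, an alternative chosen after seeing the data. At E17 against E15.5 it was 29 with sample quality weights, 24 with only the stages compared and 23 without both P0 libraries, and at P0 against E17 it was 9 with sample quality weights and 0 with only the stages compared. The cause was not tested.

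With each library left out in turn, the count of peptide and granin genes called was 0 to 0 at E14, 1 to 4 at E15.5, 0 to 6 at E17 and 0 to 2 at P0, each against the stage before, 3 to 6 at E17 and 5 to 7 at P0 against E12.5, and 6 to 8 in the F test. For the 4 lists these ranges were 0 to 4, 10 to 31, 0 to 22 and 6 to 21 for the steps, and 22 to 33 and 30 to 38 against E12.5. The lowest counts at E17 against E15.5 came from leaving out an E15.5 or E17 library.

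Scaling by total counts alone moved the median log2 change of all genes by 0.51 at P0 against E12.5, by 0.40 at E17 against E12.5 and by 0.29 at E15.5 against E14, and the share of called genes that were higher from 48.48% to 72.01%, from 49.22% to 73.27% and from 45.65% to 72.71%. That share moved from 77.91% to 90.91% at E14 against E12.5, from 62.1% to 71.03% at E17 against E15.5 and from 46.08% to 63.38% at P0 against E17. *Penk* and *Tac1* were called at P0 against E12.5 under that scaling (adjusted p = 0.0177 and 0.0187, limma), as was *Tac1* with only the stages compared (0.0491).

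Deviations of same-numbered libraries correlated above 0.1 in 5 of 10 pairs of stages (r from -0.633 to 0.427). These mixed values do not decide whether replicate numbers pair the samples, and the main fit used no pairing. With the replicate number as a block, 3 genes were called at E15.5 and 5 at E17 against the stage before and 6 at P0 against E12.5, the numbers found without it, and 7 of 8 passed the F test. The coding-length alternative was not run. Depth limits *Penk* and *Tac1* most, with 0 to 108 counts per library.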
